A study of Mus musculus with 2 samples.

Results

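The T and NKT labelled cells of cluster 13 (C13) were 104 of the 24343 splenic cells in the series. They were chosen by 2 deposited annotations, the Seurat cluster number 13 and a SingleR label of T cells or NKT, with no cut on any gene. Of the 104 cells, 75 carried the label T cells and 29 the label NKT. C13 held 387 cells in all, and the other 283 were mostly labelled NK cells (82), ILC (86), DC (79) and Tgd (19), the label for gamma-delta T cells. No cell outside C13 carried a T cells or NKT label.

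CITE-seq measured transcripts, as unique molecular identifiers (UMIs), and antibody-derived tags (adt) in the same cells. Each of the 2 groups was 1 library of the pooled spleens of 6 female C57BL/6 mice aged 8 weeks, either wildtype (WT, 12224 cells) or Batf3-/- (12119 cells), which lack the transcription factor Batf3. In both groups T and B cells had been depleted with antibodies, that for T cells against TCRb, before live MHCII+ CD11c+ cells were sorted, so the cells described here had passed a depletion aimed at T cells and a sort aimed at dendritic cells (DCs). With 1 library per genotype and cells that are not replicates, no test between genotypes was possible, and none was run between labels. All intervals below are 95% intervals that cover counting error only. The labels were assigned from the same transcripts, so differences between labelled cells, CD3 genes included, are descriptions.

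T cells recognise peptides on MHC molecules through the T cell receptor (TCR), whose signal runs through the CD3 chains, the kinases Lck and Zap70 and the adaptor Lat. Conventional T cells divide into CD4+ cells, which read MHC class II, and CD8+ cells, which read MHC class I. NKT cells carry a semi-invariant TCR for lipids on CD1d, depend on the transcription factor Zbtb16 (PLZF) and leave the thymus with a memory-like program.

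The T and NKT labelled cells came mainly from the WT library, with 79 cells (56 T, 23 NKT) against 25 Batf3-/- cells (19 T, 6 NKT). They made up 32.8% of the 241 WT cells of C13 (Clopper-Pearson interval 26.9 to 39.1) and 17.1% of the 146 Batf3-/- cells (11.4 to 24.2). Of all cells in a library, they were 0.646% in WT (0.512 to 0.805) and 0.206% in Batf3-/- (0.134 to 0.304). The intervals of the 2 libraries do not overlap on either denominator, but the spread between mice, depletions and sorts was not measured, so genotype and library cannot be told apart.

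Depth was modest, with 337242 UMIs in the WT cells and 97941 in the Batf3-/- cells. The median was 4121 UMIs per WT cell and 3770 per Batf3-/- cell, and the range over all 104 cells was 1078 to 8386. NK labelled cells had a median of 3424 UMIs, ILC labelled cells 6602.5 and DC labelled cells of C13 11740. Scrublet marked 0 of the 104 cells as doublets, against 38 of the 79 DC labelled cells of C13, of which 34 were in WT. The libraries shared 56 cell barcodes, none of them among the 104 cells.

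Each of the 104 cells held at least 1 UMI of a CD3 chain gene (Cd3e, Cd3d, Cd3g or Cd247), with a median of 11 and a range of 1 to 23. At least 3 such UMIs were found in 102 of the cells. The median was 11 for each of the T and NKT labels and for each library. The Tgd labelled cells were alike, with a CD3 chain UMI in 18 of 19 cells and a median of 10. Among the NK labelled cells 28 of 82 held one, among the ILC labelled cells 37 of 86, both with a median of 0, and among the DC labelled cells of C13 56 of 79. In the NK labelled cells this was mostly Cd247, held by 24 cells, against 6 for Cd3d, 6 for Cd3g and 1 for Cd3e. In cluster 0 (C0), a DC cluster used here for the background, 82 of 6137 cells (1.34%) held a CD3 chain UMI at a median depth of 6871 UMIs.

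**Figure D1:**
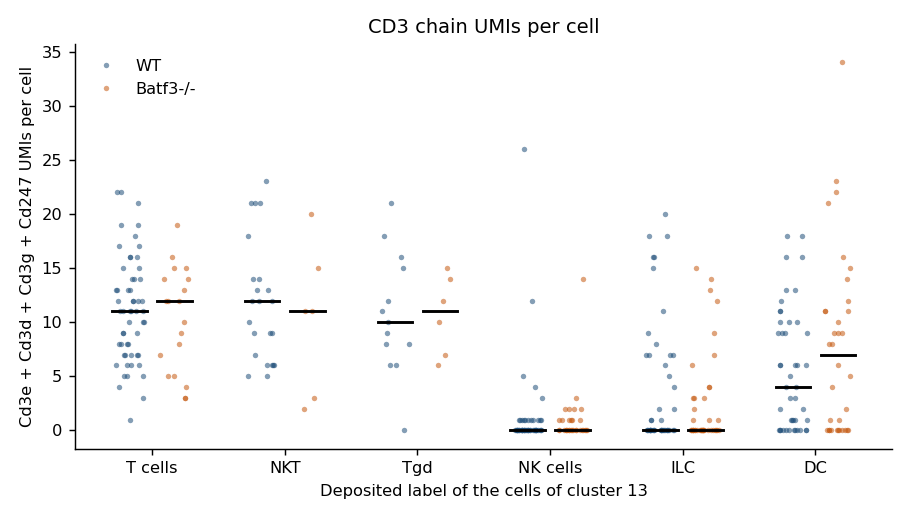
Summed Cd3e, Cd3d, Cd3g and Cd247 UMIs per cell (vertical axis) by deposited label of the C13 cells (horizontal axis), 1 point per cell, blue for WT and orange for Batf3-/-, black bars for medians. The T and NKT labelled cells centre on 11 UMIs with none at 0, while the medians of the NK and ILC labelled cells are 0.

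Cd3e, the CD3 chain that marks T cells, had 96 UMIs in the WT T and NKT labelled cells, or 285 CPM (UMIs of the gene per 1000000 UMIs of the group, Poisson interval 231 to 348), and 43 UMIs or 439 CPM (318 to 591) in Batf3-/-. The other cells of C13 had 38.8 and 54.1 CPM of Cd3e, NK labelled cells 0 and 12.2, and ILC labelled cells 16.2 and 9.87, in WT and Batf3-/- respectively. Cd3e was therefore several-fold above the rest of the cluster in each library, by 2.88 on the log2 scale in WT (2.36 to 3.41) and 3.02 in Batf3-/- (2.42 to 3.62). Thinned to 1000 UMIs per cell, 26.9% of the 104 cells kept a Cd3e UMI (18.7 to 36.5; 65.4% unthinned), against 0 of 82 NK labelled, 0 of 86 ILC labelled and 0 of 1000 C0 cells, which allow up to 3.66%, 3.49% and 0.3% at a floor of 3 counts. Unthinned, 1 of the 82 NK labelled (1.22%) and 4 of the 86 ILC labelled cells (4.65%) held one. The Tgd labelled cells shared Cd3e, with 212 CPM over both libraries and a UMI in 36.8% of cells thinned and 68.4% unthinned. Cd3d measured 1148 CPM in WT and 898 in Batf3-/-, against 229 and 187 in the other cells. Cd3g measured 1088 and 1184 CPM, against 208 and 169. Cd247, the zeta chain, which NK cells use as well, measured 136 and 112 CPM against 61.9 and 51.2. Cd3e, the marker of the label, was thus present in both libraries. The constant-region genes of the TCR itself (Trac, Trbc1, Trbc2, Trdc) were not analysed here.

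Cd3g, Cd3d and Cd3e lie side by side within 40056 bases of chromosome 9 in GRCm38 (Cd3g chr9:44969572-44980431, minus strand; Cd3d chr9:44981786-44987339, plus strand; Cd3e chr9:44998740-45009627, minus strand), and the start sites of Cd3g and Cd3d are 1355 bases apart and point away from each other. Their promoters are shown because these 3 genes are neighbours and were high together in the labelled cells. The sequences are the 250 bases before the RefSeq start (GRCm38.p6), which for Cd3e lies inside the gene span given above, taken from GENCODE, 5′ to 3′ on the strand of the gene, with capitals for the letters AGGAAG (ETS factors), CTTTGA (TCF and LEF factors), CACCTG (E proteins) and TGTGGT (RUNX factors) on either strand; none of the marked stretches overlap.
Cd3g promoter, chr9:44980432-44980681 (-): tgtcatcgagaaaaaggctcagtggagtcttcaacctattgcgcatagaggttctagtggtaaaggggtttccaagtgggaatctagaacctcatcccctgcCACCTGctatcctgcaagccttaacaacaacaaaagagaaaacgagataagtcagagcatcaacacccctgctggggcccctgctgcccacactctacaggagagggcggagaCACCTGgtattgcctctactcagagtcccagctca
Cd3d promoter, chr9:44981536-44981785 (+): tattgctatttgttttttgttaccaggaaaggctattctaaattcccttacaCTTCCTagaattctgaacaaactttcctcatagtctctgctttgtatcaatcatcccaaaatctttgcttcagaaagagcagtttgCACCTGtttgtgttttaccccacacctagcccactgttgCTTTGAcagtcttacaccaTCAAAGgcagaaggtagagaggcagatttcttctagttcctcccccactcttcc
Cd3e promoter, chr9:45009612-45009861 (-): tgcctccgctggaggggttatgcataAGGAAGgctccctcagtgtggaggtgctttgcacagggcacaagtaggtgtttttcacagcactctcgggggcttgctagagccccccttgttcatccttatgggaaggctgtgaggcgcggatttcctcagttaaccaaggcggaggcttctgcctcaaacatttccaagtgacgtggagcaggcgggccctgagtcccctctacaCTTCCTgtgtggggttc
Cd3e holds 2 ETS letters, Cd3d 1 ETS, 2 TCF and LEF and 1 E protein, and Cd3g 2 E protein. None of the 3 windows holds the RUNX letters. Over the 32851 windows of the same length, 29.5% hold the ETS letters, 13.8% the TCF and LEF, 17.2% the E protein and 14.0% the RUNX letters, so such matches are common and describe the sequence alone.

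Over the whole transcriptome, 2678 genes had at least 20 UMIs in C13 and a mean of at least 50 CPM over both sides. Of these, 88 (3.29%) were at least 2-fold higher in the T and NKT labelled cells than in the other cells of C13 and 256 (9.56%) at least 2-fold lower, with a median log2 ratio over all genes of -0.14. With the WT library alone 3.13% of genes were higher and 9.54% lower, with the smaller Batf3-/- library alone 7.59% and 13.7%. In both libraries at once 61 genes (2.28%) were at least 2-fold higher and 192 (7.17%) at least 2-fold lower. The other cells of C13 hold many transcripts of the DC labelled cells, so the comparison with the NK and ILC labelled cells alone is given beside it, with 81 of 2673 genes (3.03%) higher and 220 (8.23%) lower. There the shares were 3.08% and 9.02% in WT alone, 6.76% and 14.5% in Batf3-/- alone, and 2.25% and 5.76% in both libraries at once.

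TCR signalling genes were on the high side as a group. Of 20 listed, 18 passed the filter, with a median log2 ratio of 1.63. In each library 14 were at least 2-fold higher than in the other cells of C13 and 0 lower, against 2.28% and 7.17% of all genes. Against NK and ILC labelled cells 12 of 18 were higher over both libraries and 9 in each library, against 3.03% and 2.25% of all genes. Summed over the list, T and NKT labelled cells measured 4081 CPM, Tgd labelled cells 2757, NK labelled cells 2276 and ILC labelled cells 1367. Cd5, a receptor that dampens TCR signals, measured 202 CPM in WT and 286 in Batf3-/- (68 and 28 UMIs) and had 0 UMIs in the NK and ILC labelled cells of both libraries. Its relative Cd6 measured 148 and 143 CPM and was also at 0 in those cells. Themis, which tunes TCR signals during T cell development, measured 101 CPM in WT and 153 in Batf3-/-, against 15.7 and 14.2 in the other cells of C13. Cd28, the receptor for the B7 costimulators of DCs, measured 258 and 357 CPM against 57.8 and 35.1. Lat measured 323 and 225 CPM against 66.9 and 39.8, and Thy1, the glycoprotein used as a T cell marker in mice, 305 and 235 against 75.9 and 45.5.

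Some members of the pathway separated the labels less. Lck measured 540 CPM in WT and 562 in Batf3-/-, against 433 and 378 in NK labelled cells, and its log2 ratio to NK and ILC labelled cells was 0.69. Fyn, a Src kinase of both T and NK cells, had a ratio to the other cells of 0.71 (log2), Lcp2, the adaptor SLP-76, -0.07, and Ptpn22, a phosphatase, 0.23.

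The transcription factors were mixed. Of 22 listed, 15 passed the filter, and 6 were at least 2-fold higher and 3 lower than in the other cells of C13, against 3.29% and 9.56% of all genes. In each library 6 were higher and 1 was lower, against 2.28% and 7.17% of all genes. Compared with NK and ILC labelled cells 4 of 17 were higher and 5 lower, against 3.03% and 8.23% of all genes. Bcl11b, which fixes T cell commitment, measured 308 CPM in WT and 327 in Batf3-/-, against 42.1 and 37.9, with 0 UMIs in NK labelled cells. Lef1, a TCF family factor of naive T cells, measured 374 and 317 CPM against 63.6 and 56. Its partner Tcf7 (TCF-1), which ILC progenitors also use, measured 246 and 337 CPM against 181 and 204, and ILC labelled cells had 289 and 388. Ets1 measured 528 and 664 CPM against 245 and 259. Over both libraries, Tgd labelled cells had 145 CPM of Bcl11b, 164 of Lef1, 434 of Tcf7 and 453 of Ets1. The T and NKT labelled cells had 313, 361, 267 and 558. Eomes, the T-box factor of NK cells, was on the low side with 20.8 and 30.6 CPM against 133 and 154, and Tox at 47.4 and 30.6 against 92.4 and 94.9.

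Outside the lists, the genes with the highest ratios were Art2b, an ADP-ribosyltransferase of mouse T cells (110 CPM in WT and 102 in Batf3-/- against 8.25 and 6.64), and Gm8369 (267 and 245 CPM against 26.4 and 30.4). The other 8 of the 10 highest were list members, Cd8b1, Izumo1r, Dapl1, Igfbp4, Cd5, Cd6, Bcl11b and Themis. Izumo1r, the folate receptor 4 of regulatory and anergic CD4+ T cells, measured 133 CPM in WT and 194 in Batf3-/- against 13.2 and 6.64.

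**Figure D2:**
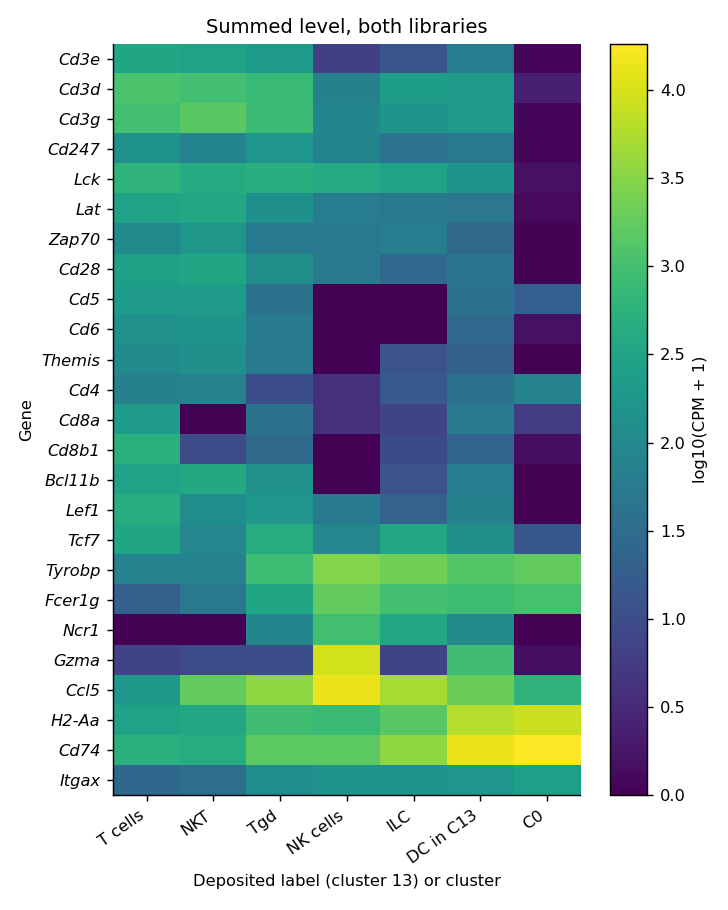
Summed level of 25 genes (rows) in the C13 cells by deposited label and in C0 (columns), as log10(CPM + 1) over both libraries. T and NKT labelled columns are bright for Cd3e, Cd3d, Cd3g, Cd5, Cd6 and Bcl11b and dark for Ncr1 and Gzma, and Cd8a and Cd8b1 are bright in the T column (228 and 513 CPM) and dark in the NKT column.

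NK cell transcripts were low. Summed over the list they measured 485 CPM, with a UMI in 64 of the 104 cells, against 14332 CPM in NK labelled cells. In each library all 14 NK list genes that passed the filter were at least 2-fold lower than in the other cells of C13. The matching share of all genes was 7.17%. The median log2 ratio of the 14 was -4.65 with the cells pooled, -4.35 for WT and -2.68 for the shallower Batf3-/- library. Of the 17 listed, 5 had 0 UMIs in the 104 cells. Ncr1 (NKp46), Klra4 and Klra8 had 0 UMIs, while NK labelled cells had 1085 and 726 CPM of Ncr1 in WT and Batf3-/-. Tyrobp, the adaptor DAP12, measured 86 CPM in WT and 51.1 in Batf3-/- against 3139 and 2677 in NK labelled cells, and Fcer1g 26.7 and 30.6 against 2127 and 1207. Gzma had 3 UMIs in the 104 cells against 9472 and 8732 CPM in NK labelled cells. Klrd1 (CD94), a receptor of NK cells and some T cells, measured 205 CPM in WT and 163 in Batf3-/-, with UMIs in 41 of the 104 cells. Reads of the Klra genes, a family of near-identical copies, may have been split between members in the counting.

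The effector genes as a list showed the same side, with 7 of 8 at least 2-fold lower than in the other cells and 0 higher, against 9.56% and 3.29% of all genes. Prf1 (perforin) had 12 UMIs in the 104 cells and Gzmb 0. Ccl5, a chemokine of effector and memory lymphocytes, measured 715 CPM in WT and 265 in Batf3-/-, against 4905 and 4359, and 1 cell alone held 82 of its 267 UMIs.

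The lowest ratios outside the lists were led by Jchain, the joining chain of secreted antibodies, with 1 UMI in the 104 cells against 6220 CPM in the other WT cells of C13 and 0 in the other Batf3-/- cells. Nrgn, Car2 (carbonic anhydrase 2), Ly6d and Tcf4, the E protein of pDCs and B cells, had 1 UMI each in the 104 cells, and Mef2c had 2. Other cells of C13 had 164 and 283 CPM of Nrgn in WT and Batf3-/-, 183 and 182 of Car2, 113 and 145 of Ly6d, 129 and 119 of Tcf4 and 228 and 263 of Mef2c. Gzma, Klre1, Klra4 and Klra7 complete the 10 lowest.

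Transcripts of B cells and monocytes were scarce. Cd79a and Ms4a1 of B cells had 0 UMIs, and 8 of the 9 B cell genes analysed were at 0, with Cd79b at 5 UMIs. Of 12 monocyte, macrophage and neutrophil genes 9 were at 0, and Lyz2 had 10 UMIs. Siglech of pDCs had 1 UMI, but the 6 pDC genes together measured 255 CPM against 94.7 in NK labelled and 94.7 in C0 cells, 201 in ILC labelled, 202 in Tgd labelled and 216 in DC labelled cells of C13. Bst2, an interferon-induced gene, measured 148 CPM in WT and 133 in Batf3-/-, and Ccr9, a gut-homing receptor of T cells and pDCs, 77.1 and 61.3. The gamma-delta list had 3 genes in the files, of which only Blk was seen, with 3 UMIs in 1 cell.

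Transcripts of MHC class II and CD11c, the molecules of the sort, were low against the DC cluster. H2-Aa, the alpha chain of MHC class II, measured 311 CPM in WT and 276 in Batf3-/-, or 3.74% and 3.40% of the C0 level. H2-Ab1 was at 4.29% of C0, H2-Eb1 at 3.81%, the invariant chain Cd74 at 2.67% and Itgax, which encodes CD11c, at 10.9% (12 UMIs in 104 cells), over both libraries. NK labelled cells were at 8.93% of C0 for H2-Aa, ILC labelled cells at 17.9% and, for Itgax, at 57.8% and 59.5%. These levels are sums over cells, and a few NK labelled cells held many of the MHC class II UMIs (up to 344 in WT and 394 in Batf3-/-). Cst3, another DC gene, was on the other side, at 34.0% of C0 in the T and NKT labelled cells against 21.1% in NK and 15.2% in ILC labelled cells, and at 15.5% without the single WT cell described next. In Batf3-/- alone the order was 7.17%, 8.57% and 9.95%. C0 itself was low for Cst3, at 1718 CPM against 7472 over all cells of both libraries. A percent of C0 is therefore not a percent of the level in DCs at large for this gene. Thinned to 1000 UMIs, 19.2% of the T and NKT labelled cells kept an H2-Aa UMI (12.2 to 28.1; 61.5% unthinned), against 32.9% of NK labelled (22.9 to 44.2), 61.6% of ILC labelled and 99.9% of C0 cells.

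Counted per cell over H2-Aa, H2-Ab1, H2-Eb1 and Cd74, the median was 4 UMIs in WT and 4 in Batf3-/-, against 305 and 303 in C0. NK labelled cells had medians of 4 and 5 and Tgd labelled cells of 5 and 5 in WT and Batf3-/-, close to those of the T and NKT labelled cells, while ILC labelled cells had medians of 26 and 47. Of the 104 cells 97 held 10 or fewer. A single WT cell with the T cells label held 159, and the next highest held 18. That cell had 7987 UMIs, 11 of them from CD3 chains, and 140 of Cst3 (cystatin C, abundant in DCs), and Scrublet did not mark it. Without it, Cd74 was 328 CPM in place of 487, H2-Aa 239 in place of 303 and Cst3 267 in place of 584, while Cd3d was 1100 in place of 1091 CPM.

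**Figure D3:**
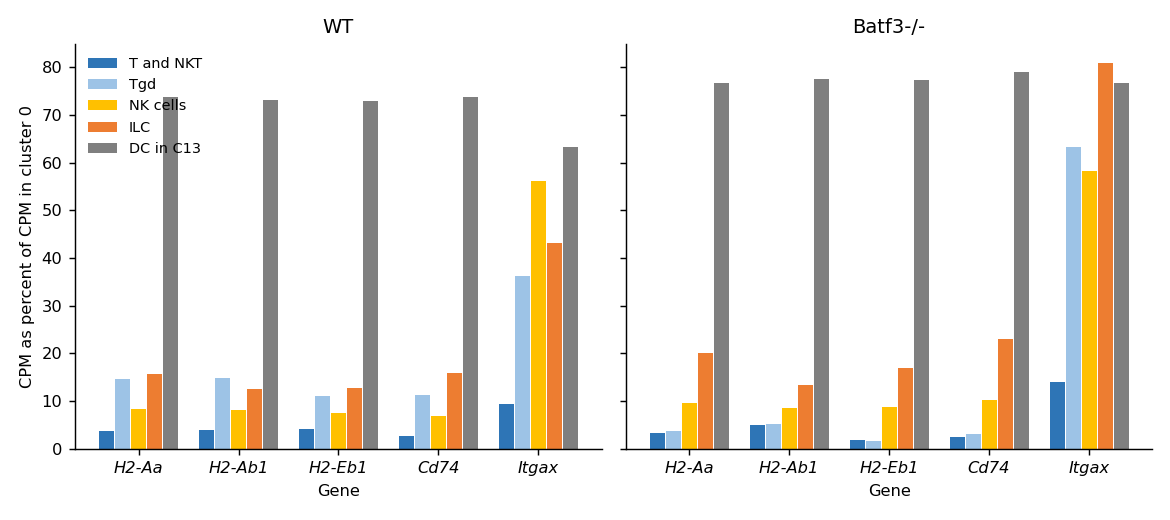
CPM of H2-Aa, H2-Ab1, H2-Eb1, Cd74 and Itgax (horizontal axis) in labelled cells of C13 as a percent of the CPM in C0 of the same library (vertical axis), WT left and Batf3-/- right. The T and NKT bars for H2-Aa are at 3.74% and 3.40%, below those of NK and ILC labelled cells for all 5 genes in both libraries.

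The CD11C tag was low as well. Its median was 27 counts per cell in WT (25th to 75th percentile 23 to 32.5) and 28 in Batf3-/- (23 to 35). NK labelled cells had 31 and 29, ILC labelled cells 45 and 47, and C0 cells 89 and 62. The 6 WT and 4 Batf3-/- cells of C13 labelled B cells had medians of 19 and 30, and Scrublet marked 4 of the 6 WT cells as doublets. The study lists the same clone for its fluorescent CD11c antibodies and its CD11C tag, and an effect on the tag was not tested. Tag rows carry no antibody names in the files, and 3 of 11 rows (CD4, CD8A and CD11C) could be tied to an antibody by their correlation with its gene over cells outside C13 in both libraries; the other antibodies were not analysed here.

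Cd8b1, the beta chain of conventional CD8+ T cells, had the highest ratio of the 2678 genes between the 104 cells and the rest of C13. It measured 380 CPM in WT (128 UMIs, 317 to 451) and 357 in Batf3-/- (35 UMIs, 249 to 497), against 20.6 and 13.3 in the other cells and 0 UMIs in NK labelled cells. Cd8a, which cDC1 also express, measured 166 CPM in WT and 163 in Batf3-/- against 49.5 and 10.4. Cd4 measured 56.3 CPM in WT (33.9 to 88) and 123 in Batf3-/- (63.3 to 214), against 32.2 and 19.0. Thinned to 1000 UMIs, 23.1% of the 104 cells kept a Cd8b1 UMI and 3.85% a Cd4 UMI (39 and 26 of the 104 cells unthinned), against 0 of 1000 and 7.70% of C0 cells. Thinned to 2000 UMIs the Cd4 share was 15.5% (9.15 to 24.0) against 14.1% in C0, so its order with the DC cluster turns with the depth and is not read. At 1000 UMIs NK labelled cells kept neither UMI in 82 cells.

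The coreceptors hardly met in the same cell. A Cd8a or Cd8b1 UMI without a Cd4 UMI was found in 31 of 79 WT cells (39.2%, 28.4 to 50.9) and 7 of 25 Batf3-/- cells (28.0%, 12.1 to 49.4). A Cd4 UMI without Cd8a or Cd8b1 was found in 16 WT (20.3%, 12.0 to 30.8) and 8 Batf3-/- cells (32.0%, 14.9 to 53.5). Both occurred in 0 WT and 2 Batf3-/- cells, and neither in 32 WT and 8 Batf3-/- cells. The intervals of the 2 libraries overlap for the CD8 and the Cd4 class, and for cells with both they were 0 to 4.56% in WT and 0.984 to 26.0% in Batf3-/-. Of the 39 cells with a Cd8b1 UMI, 33 also held Cd8a.

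The surface tags followed the transcripts. Cells with a CD8 gene UMI alone had a median CD8A tag of 70 counts in WT and 72 in Batf3-/- and a median CD4 tag of 24 and 25. Cells with a Cd4 UMI alone had a median CD4 tag of 60 and 65.5 and a median CD8A tag of 36 and 43. All 31 such WT cells with a CD8 gene UMI, and 6 of 7 Batf3-/- cells, had more CD8A than CD4 tags. The background medians given below also have CD8A above CD4, so that count alone says little. On the CD8A tag, 23 of the 31 and 5 of the 7 lay above every cell with a Cd4 UMI alone. Of those with a Cd4 UMI, 15 of 16 WT and 6 of 8 Batf3-/- cells had more CD4 than CD8A tags. On the CD4 tag, 14 of the 16 and 6 of the 8 lay above every cell with a CD8 gene UMI alone in their library. The cells with neither transcript were nearer to the CD4 side, with a median CD4 tag of 49 in WT and 52 in Batf3-/- and more CD4 than CD8A tags in 20 of 32 and 7 of 8 cells. CD4 and CD8A tags in NK labelled cells had medians of 27 and 39 in WT and 29 and 40 in Batf3-/-, which gives the tag background.

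**Figure D4:**
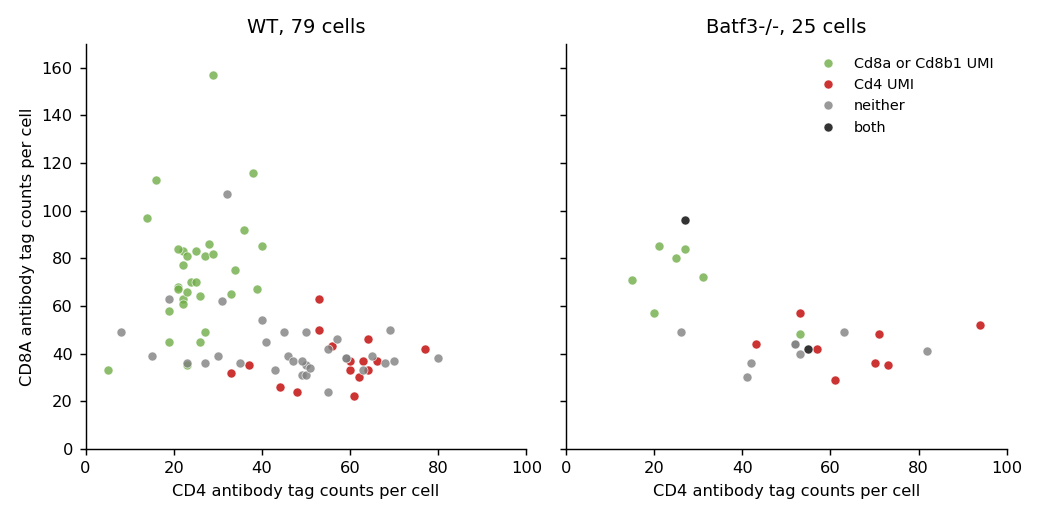
CD4 (horizontal axis) and CD8A (vertical axis) antibody tag counts of each T and NKT labelled cell, WT left and Batf3-/- right, coloured by which coreceptor UMIs the cell held. Cells with a Cd8a or Cd8b1 UMI lie high on CD8A (medians 70 and 72) and cells with a Cd4 UMI far out on CD4 (medians 60 and 65.5), and most grey cells with neither lie near the latter.

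Some other genes differed with the coreceptor. They were chosen after their values were seen, and no share of all genes is given beside them. Ly6c2, a marker of memory-type CD8+ T cells, had 46 UMIs in the 38 cells with a CD8 gene UMI alone and 0 in the 24 cells with a Cd4 UMI alone. Ctsw, a cathepsin of cytotoxic lymphocytes, measured 238 CPM against 45.0 (4 UMIs in 1 cell), and Klrd1 265 against 78.8. Effector genes were mixed. Nkg7 measured 586 against 315 CPM, whereas Ccl5 measured 265 against 338 and Ifng had 0 against 10 UMIs. Dapl1 measured 520 against 203 CPM and Ccr7 332 against 158, whereas Igfbp4 was on the other side with 144 against 236. On the Cd4 side, Ikzf2 (Helios) measured 383 CPM against 49.8 in the CD8 cells and Izumo1r 214 against 38.7. Cd28 measured 360 against 149 CPM, and Cd5 338 against 138. The 40 cells with neither coreceptor UMI had 33 UMIs of Ly6c2 and measured 142 CPM of Ctsw, 175 of Klrd1, 194 of Dapl1, 401 of Ikzf2 and 246 of Izumo1r. All 38 CD8 cells carried the T cells label, whereas 7 of the 24 Cd4 cells and 21 of the 40 with neither were NKT labelled. The values therefore mix coreceptor and label for genes that differ between the labels. A comparison of the 38 CD8 and 17 Cd4 cells within the T label was not made. These values pool both libraries, and the WT cell rich in DC transcripts is among the CD8 cells.

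The T and NKT labels differed in naive, memory and NKT genes. Over 2508 genes that passed the filter, 76 (3.03%) were at least 2-fold higher in T and 341 (13.6%) at least 2-fold higher in NKT labelled cells, and the median log2 ratio of T over NKT was -0.30. Centred on that median the counts were 163 and 173, so the split of all genes changes with the scaling. Ribosomal protein genes took a median of 37.7% of UMIs in T and 25.8% in NKT labelled cells, and the part of this difference in the ratios was not tested. Of 4 CD3 genes 0 were 2-fold apart, and 1 was when centred. Of 19 TCR signalling genes 0 were higher and 2 lower, with a median of -0.33, near the share and the median of all genes. The dissociation stress list had a median of -0.60, with 1 of 8 genes 2-fold lower in T (0 when centred). These counts are near the shares of all genes, 13.6% and, when centred, 6.9%. Its summed levels were 5778 CPM in T and 8766 in NKT labelled cells, and its part in the ratios was not tested.

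Naive and recirculation genes were on the T side, with 6 of 9 at least 2-fold higher and 0 lower (median 1.95), against 3.03% and 13.6% of all genes. Centred on the median gene 7 of 9 were higher, against 6.5% of all genes. Ccr7, the chemokine receptor that leads naive cells into T zones, had 102 UMIs or 323 CPM in T (263 to 392) and 2 UMIs or 16.8 CPM (2.03 to 60.5) in NKT labelled cells. Dapl1 had 142 UMIs in 36 T labelled cells and 0 in NKT labelled cells, which makes it at least 17.9-fold higher. S1pr1, the receptor for exit from lymphoid organs, measured 225 against 75.4 CPM, Lef1 453 against 117 and Tcf7 332 against 92.2. Cd8a had 72 UMIs in T and 0 in NKT labelled cells (at least 9.07-fold), and Cd8b1 162 and 1. Outside the lists the highest ratios were those of Fam169b (39 and 1 UMIs), Rgcc, Pdlim1 and Dph5 (33 and 1 UMIs each) and Cmah (44 and 2). Cd4 measured 69.7 and 75.4 CPM, with an interval of the log2 ratio of -1.29 to 1.19.

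Memory, tissue-homing and NKT genes were on the NKT side. Of 8 activated and memory genes 6 were at least 2-fold higher in NKT labelled cells and of 8 NKT genes 6, with 0 the other way, against 13.6% of all genes. Centred on the median gene these were 5 and 6, against 6.90% of all genes. Then 1 of the 8 NKT genes was at least 2-fold higher in T labelled cells, against 6.5% of all genes. Many genes of the NKT list are shared with NK cells, and its sum in NKT labelled cells, 2062 CPM, was below that in NK (7094) and ILC labelled cells (6488). Against the other cells of C13, 7 of its 10 genes were lower in the 104 cells, against 9.56% of all genes. Cxcr6, a chemokine receptor of NKT and tissue-resident T cells, had 9 UMIs in T and 84 in NKT labelled cells, or 28.5 and 704 CPM. Cxcr3 measured 22.2 and 369 CPM, Cd44 31.7 and 210, and the transcription factors Id2 218 and 1358, Rora 9.50 and 310 and Maf 25.3 and 293. Ifng, the cytokine interferon gamma, had 3 UMIs in T and 28 in NKT labelled cells, and Ccl5 measured 187 and 1743 CPM. A large part of the Ccl5 level in NKT labelled cells came from 1 cell. Klrk1 (NKG2D) had 1 and 23 UMIs, Cd160 4 and 28, Xcl1 4 and 22 and Ccr2 2 and 23. The regulatory T cell list was on the same side, with 4 of 4 genes at least 2-fold higher in NKT labelled cells (3 of 4 centred on the median gene), among them Ikzf2 at 76 and 687 CPM and Izumo1r at 85.5 and 310.

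**Figure D5:**
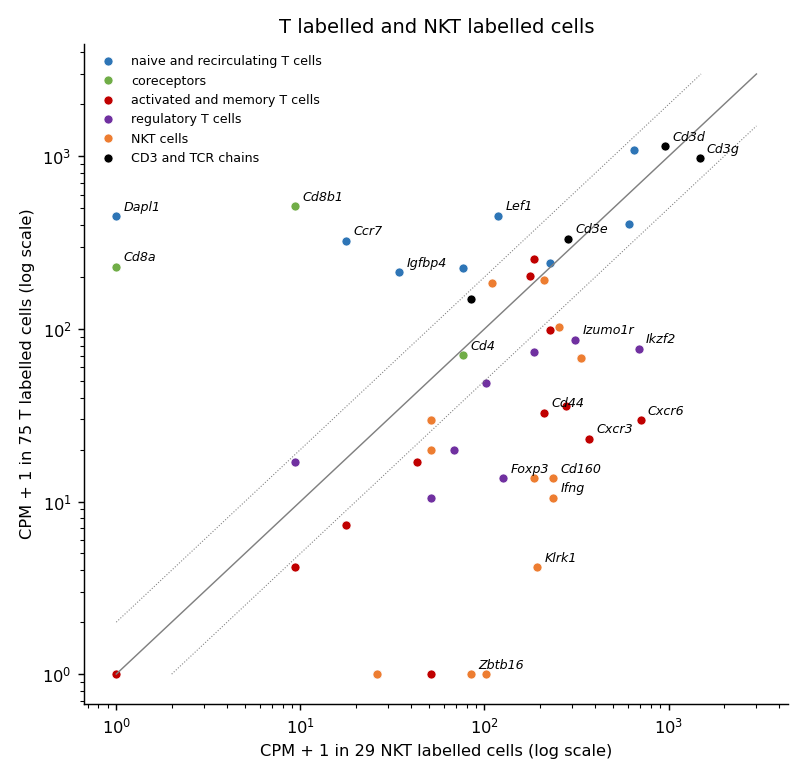
CPM + 1 in the 29 NKT labelled (horizontal axis) and 75 T labelled cells (vertical axis), both on log scales, for 6 gene lists, with the line of equal levels and dotted lines at 2-fold. Dapl1, Cd8a, Cd8b1 and Ccr7 lie above, Cxcr6, Cxcr3, Ifng and Klrk1 below, and Cd3d, Cd3e and Cd3g near the line of equal levels.

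The NKT label did not cover 1 kind of cell. Of the 29 cells, 14 also carried a fine SingleR label of NKT (13 of them NKT.4+), 13 a fine T cell label, 6 of these T.Tregs, and 2 a Tgd label. Zbtb16 had 10 UMIs in 7 cells, all 7 NKT labelled (6 WT, 1 Batf3-/-) and 6 of them with the fine NKT label. All 7 held Cxcr6, with 4 to 13 UMIs each. Cxcr6 was seen in 22 of the 104 cells in all, 15 NKT and 7 T labelled. Tbx21 (T-bet) was seen in 6 of the 7 cells with Zbtb16, and Klrb1c, which encodes NK1.1, in 3. Among the 94 cells without a Foxp3 UMI, which include these 7, Tbx21 was seen in 13 and Klrb1c in 7. Il4 had 3 UMIs in the 104 cells, each in a different cell and all with the fine NKT label.

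Foxp3, the regulatory T cell factor, had 19 UMIs in 10 cells (7 WT, 3 Batf3-/-), of which 6 were NKT labelled and 4 T labelled. None of the 10 held Zbtb16, Cxcr6 or Cd8b1, which were seen in 7, 22 and 39 of the 104 cells. Zbtb16 and Cxcr6 were held by too few of the 104 cells for their absence from the 10 to be read. Ikzf2 was seen in 8 of the 10 and in 28 of the other 94 cells, and Izumo1r in 8 and in 23. Foxp3 had 0 UMIs in the 14 cells with the fine NKT label. In those 14 cells Cxcr6 measured 1156 CPM, Id2 2012 and Ccl5 2869, above the values for all 29 NKT labelled cells.

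The genotypes were compared last, within the 104 cells. Batf3 had 3 UMIs in the WT and 0 in the Batf3-/- cells, too few to show the knockout here, whereas NK labelled cells had 19 and ILC labelled cells 59 UMIs in WT and both had 0 in Batf3-/-. Of 2437 genes, 107 (4.39%) were at least 2-fold higher in the Batf3-/- cells and 102 (4.19%) at least 2-fold lower, with a median log2 ratio of 0.05. In the NK and ILC labelled cells, with more UMIs, 0.691% and 0.656% of 2896 genes were. With a floor of 50 UMIs in place of 20 the counts within the 104 cells were 6 and 22 of 1000 genes.

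The CD3, transcription factor and TCR signalling lists held 1 gene that was 2-fold apart between the libraries. Of 4 CD3 genes 0, of 14 transcription factors 0 and of 19 TCR signalling genes 1 (Trat1, higher in Batf3-/- on 10 UMIs against 14) were 2-fold apart, with median log2 ratios of -0.08, 0.04 and 0.06. Of all 2437 genes 4.39% were higher and 4.19% lower, so lists this short do not show a difference from all genes. In the other T cell lists 1 of 3 coreceptors (Cd4), 1 of 4 regulatory T cell genes (Capg), 1 of 9 naive genes (Dapl1) and 2 of 8 activated and memory genes (S100a4 and Ly6c2) were 2-fold apart, against the same shares of all genes. In the NKT list 1 of 7 genes and in the effector list 1 of 4 were at least 2-fold lower in Batf3-/-. Cd4, Capg and S100a4 were on the Batf3-/- side, and the interval of Cd4 was -0.05 to 2.24. The ratio of Cd3e was 0.63 (0.07 to 1.16) and that of Cd3d -0.35 (-0.70 to -0.02).

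The highest ratios of Batf3-/- over WT rested on few UMIs (Batf3-/- given before WT), with 2010111I01Rik at 13 against 9 UMIs (133 and 26.7 CPM), P4hb, a protein disulfide isomerase, at 11 against 10, Capg, an actin-capping protein, at 14 against 13, S100a4, a calcium-binding protein of memory T cells, at 22 against 22 and Rnf111, a ubiquitin ligase, at 11 against 11. The lowest were Pdcd6ip (2 UMIs in Batf3-/- against 44), U2surp (2 against 40), Lsm3 (2 against 32), Lsm2 (2 against 31) and Cst3 (13 against 241). None of these but Cst3 was 2-fold apart in the NK and ILC labelled cells.

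Cst3 measured 715 CPM in WT and 133 in Batf3-/-, a log2 ratio of -2.43 (-3.36 to -1.63). Without the WT cell that held 140 of its UMIs the ratio was -1.21 (-2.17 to -0.37). In the NK and ILC labelled cells it was -1.24 (-1.62 to -0.86), and over all cells of the libraries Cst3 measured 10691 CPM in WT and 4029 in Batf3-/-. H2-Eb1, at 400 and 174 CPM, had a ratio of -1.21 with that cell and -0.79 without it. Without it Cd74, H2-Ab1 and H2-Aa were on the Batf3-/- side. Their ratios were 0.67 (0.13 to 1.20), 0.40 (-0.15 to 0.93) and 0.28 (-0.42 to 0.93). Dapl1 measured 371 CPM in WT and 174 in Batf3-/- (-1.09, -1.92 to -0.36), and Ly6c2 222 and 102.

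The deposited cell cycle phase was S or G2M for 33 of 79 WT (41.8%) and 13 of 25 Batf3-/- cells (52.0%, 31.3 to 72.2), against 43.9% of NK labelled and 8.55% of C0 cells. The share was 33.6% in the other cells of C13, 47.4% in Tgd labelled cells and 27.4% over all cells of the series. The 14 cell cycle genes summed to 864 CPM in the 104 cells, against 3170 in NK labelled and 651 in C0 cells, and most of the UMIs were of Tubb5 (157 UMIs), a tubulin, and Hmgb2 (145 UMIs), a chromatin protein. The others were low, with 4 UMIs of Mki67, 4 of Top2a, 1 of Cdk1 and 0 of Birc5, Rrm2 and Ccnb2 over all 104 cells. Pcna had 28 UMIs. The Tgd labelled cells, in contrast, had 328 CPM of Mki67 against 9.19 in the T and NKT labelled cells. Of 8 dissociation stress genes 0 were 2-fold from the other cells of C13, against 3.29% of all genes higher and 9.56% lower. A list this short does not show a difference from all genes.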

How the data were processed

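The authors depleted T and B cells, sorted live MHCII+ CD11c+ splenocytes, made 1 library per genotype and processed reads with bcl2fastq 2.2.0, Cell Ranger (GRCm38) and Seurat 3.0.5, per the labels and the study's methods. They deposited raw counts (UMIs per gene and cell, tag counts per antibody and cell). Mitochondrial and ribosomal shares came deposited as a fraction per cell, and the authors' centered log ratio of tags is on a natural log scale. Phases come from a cell cycle score that the authors deposited. Clusters and SingleR labels were used as deposited.

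Counts were summed over cells of a label and library and divided by their total (CPM). Ratios are log2 with an exact binomial interval, and Poisson or Clopper-Pearson intervals (95%) cover counting error only. With 0 UMIs on 1 side the ratio is a bound at 3 counts per group. Genes needed 20 UMIs over both sides and a mean of 50 CPM. A gene 2-fold apart was counted, and no test between groups was run, because each genotype is 1 library and labels come from the same transcripts. Shares of cells holding a gene's UMI were compared after thinning every cell to 1000 UMIs (1000 cells drawn from C0). The text names list members, the 10 highest and 10 lowest ratios (T and NKT labelled against other cells of C13, T against NKT) and the 5 highest and 5 lowest of Batf3-/- over WT. The 10 for T against NKT and the genes that differ with the coreceptor were chosen after their values were seen. Doublets were called with Scrublet in scanpy 1.11.5 (expected rate 0.1) and kept. The calculation of ratios and intervals was tested on simulated data. Python 3.11.15, numpy 2.4.6, scipy 1.17.1 and pandas 2.3.3 were used. The authors' natural log normalized transcript values were not used. A few listed genes are not reported here by name. The cells and gene lists were chosen with earlier results of these data known.

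A gene count rests on 97941 UMIs in the smaller group, so that a gene at 0 there may reach 30.6 CPM (3 counts).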

Additional observations from a re-analysis of the deposited data

How the results depend on the processing

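No paired analysis was possible because each genotype is 1 library and the labels give no replicate numbers. Without doublet calls the share of T and NKT labelled cells in C13 was 39.5% in WT, since other WT cells of C13 were removed; as a percent of the library the shares were 0.646% and 0.206%. Without mitochondrial and ribosomal protein genes in the total, Cd3e was 541 and H2-Aa 514 CPM, and H2-Aa was 239 CPM without the cell of most MHC class II UMIs, an alternative chosen after seeing the data. Against the other cells of C13, the genes at least 2-fold higher numbered 208 in the Batf3-/- library alone, and without the CPM filter 333 were higher and 1638 lower. For Batf3-/- against WT, 6 genes were higher and 22 lower at 50 UMIs, and 186 lower without the CPM filter. With a Cd3e UMI, 38.8% of cells were counted at 2000 UMIs and 65.4% without thinning. For T against NKT labelled cells, in alternatives chosen after seeing the data, 139 genes were higher in T with the fine NKT label alone, 28 higher and 71 lower at 50 UMIs, and 163 higher and 173 lower centred on the median gene. Scaling of tags by the centered log ratio changed no direction for CD4, CD8A or CD11C. Apart from the counts whose filter changed, the cause of a move was not tested. With 25 Batf3-/- cells, differences between genotypes in single genes were limited by depth.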
